A study of Mus musculus with 8 samples.

Results

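The 10 genes described here encode G protein-coupled receptors through which macrophages sense inflammatory and metabolic ligands: Hcar2, Gpr84, Adora2a, Adora2b, Fpr1, Fpr2, C5ar1, C3ar1, Ptafr and Gpr183. They were chosen by name, as the rows of the gene count table whose Ensembl identifier carries one of these symbols. The choice was made with earlier results of these data known. All 10 were found among the 34745 genes of the table, and all 10 were among the 14040 genes with enough counts to be tested. Messenger RNA was sequenced from mouse bone-marrow-derived macrophages (BMDM), which are primary cells grown from bone marrow in macrophage colony-stimulating factor, here at 20 ng/ml. The 4 groups of 2 libraries were KAT8-deficient BMDM given R848 (100 ng/ml, 6 h), KAT8-deficient BMDM left untreated, WT BMDM treated with R848 in the same way, and WT BMDM left untreated. The sample titles call the KAT8-deficient genotype KAT8-cKO. No label names the Cre driver, the deleted part of the gene, the strain or the age of the mice. Nothing in the labels tells whether libraries of the same group stem from different mice or cultures, so p-values measure only the spread between these libraries, which may be technical.

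These receptors pass a signal from outside the cell to G proteins inside it. Receptors that couple to Gi, such as those for formyl peptides, complement fragments, niacin and oxysterols, lower cyclic AMP and can drive cell migration. The adenosine A2 receptors couple to Gs, raise cyclic AMP and restrain cytokine release in macrophages. R848 (resiquimod) activates TLR7, an endosomal sensor of single-stranded RNA that signals to NF-kB. KAT8, also known as MOF, transfers acetyl groups to histones, chiefly histone H4.

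Total counts ran from 18550977 to 21384532 per library. Levels are given as CPM, a gene's reads relative to all reads counted in its library, after TMM scaling, which corrects for library composition, and 3 counts correspond to 0.14 to 0.162 CPM, a floor that covers counting error only. Kat8 stood between 8.76 and 10.8 CPM in the 4 KAT8-deficient libraries and between 15.98 and 18.03 CPM in the 4 WT libraries, so its mRNA was lower in each library with that label. All 10 macrophage markers were present at 1 CPM or more, with summed levels of 9003 to 10114 CPM in KAT8-deficient libraries and 15312 to 16773 CPM in WT libraries. Without Lyz2, a choice made after seeing the data, the sums of the other 9 were 3801 to 4170.5 CPM in KAT8-deficient libraries and 4228.5 to 4634 CPM in WT libraries. Neutrophils also carry several of these receptors. Of 10 neutrophil markers, Ly6g was at 0 in every library, 1 averaged 1 CPM or more, and the list summed to 5.05 to 5.98 CPM in R848-treated KAT8-deficient cells, 5.99 to 6.77 in untreated KAT8-deficient cells, 7.10 to 8.59 in R848-treated WT cells and 6.73 to 6.90 in untreated WT cells. Of the 3 neutrophil markers tested, Camp, named after its values were seen, was called higher with R848 in WT cells (list median 0.38 on the log2 scale) and lower in KAT8-deficient cells under R848 (list median -0.47), against 6.94% and 5.47% of all genes. These medians are of the 3 genes, not of Camp. Camp had only 36 counts in all libraries together, and DESeq2 called 0 of the 3 in either comparison. The 11 stromal and endothelial markers, 10 of them at 1 CPM or more, summed to 3673 to 3780 CPM in R848-treated KAT8-deficient cells, 4084 to 4257 in untreated KAT8-deficient cells, 2471 to 2682 in R848-treated WT cells and 2947 to 3448 in untreated WT cells. Of the 10 tested, 8 were called higher in KAT8-deficient cells under R848 and 6 untreated, against 8.14% and 2.91% of all genes. With R848 in WT cells 1 of them was called higher and 4 lower, against 6.94% and 6.7% of all genes. The part of these marker genes or of any such cells in the results was not tested, and in bulk cultures fewer cells of a type and less mRNA per cell cannot be told apart. Tlr7 differed within groups, at 29.6 and 69.05 CPM in R848-treated KAT8-deficient cells, 33.1 and 77.9 in untreated KAT8-deficient cells, 84.6 and 35.2 in R848-treated WT cells, and 30.2 and 33.9 in untreated WT cells. Among R848-treated KAT8-deficient libraries, replicate 2 was above replicate 1 for 8 of the 10 receptors, with log2 differences between the replicates from -0.30 for Gpr183 to 0.87 for Fpr2. That count was 4 in untreated KAT8-deficient, 4 in R848-treated WT and 7 in untreated WT cells. The share over all genes was not computed. Tnf, an R848-responsive cytokine gene, stood at 51.8 CPM in replicate 1 and 101 CPM in replicate 2 of R848-treated KAT8-deficient cells. In R848-treated WT cells it stood at 381 and 368 CPM. A link between these differences and that of Tlr7 was not tested.

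All 10 receptors were called changed with R848 in WT cells, against 13.6% of all genes tested (edgeR adjusted p under 0.05). R848 raised 8, from 14.4-fold for Hcar2 to 1.28-fold for C5ar1, and lowered C3ar1 and Gpr183. The calls on Adora2b and C5ar1 did not hold in every alternative fit described below. In KAT8-deficient cells 4 rose, namely Hcar2, Gpr84, Adora2a and Fpr1, against 0.634% of all genes called in either direction. Under R848, 7 receptors were lower and 2 were higher in KAT8-deficient than in WT cells, and the 2 higher ones were C3ar1 and Gpr183, against 13.6% of all genes called. Without R848, C5ar1 was the 1 receptor called between the genotypes, being higher in KAT8-deficient cells, against 4.27% of all genes called. The others were not shown to be alike.

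**Figure D1:**
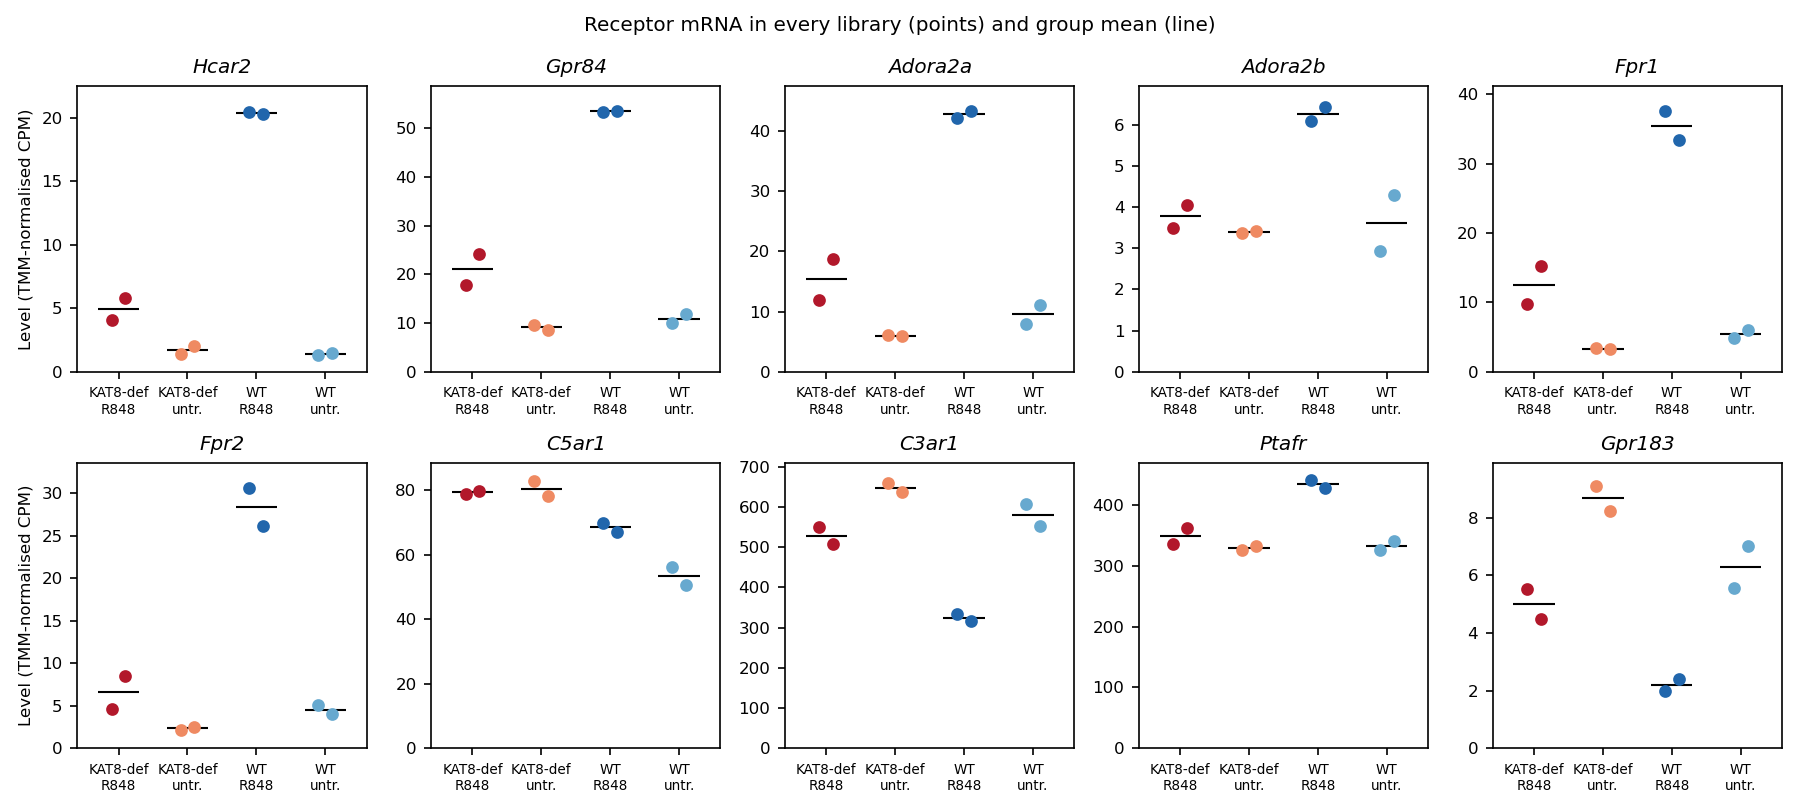
TMM-normalised CPM of each receptor (vertical axis, from 0) in the 8 libraries, with 1 point per library and a line at the mean of each group of 2. The 2 R848-treated WT libraries were the highest for Hcar2 (20.5 and 20.3 CPM), Gpr84, Adora2a, Adora2b, Fpr1, Fpr2 and Ptafr and the lowest for C3ar1 (333 and 316 CPM) and Gpr183.

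Among the metabolite receptors, Hcar2 (ENSMUSG00000045502, chromosome 5, 123863570 to 123865499, GRCm38), which encodes a receptor for niacin and the ketone body beta-hydroxybutyrate, had the widest range. It stood at 4.10 and 5.80 CPM in R848-treated KAT8-deficient cells, 1.36 and 2.03 CPM in untreated KAT8-deficient cells, 20.5 and 20.3 CPM in R848-treated WT cells, and 1.35 and 1.47 CPM in untreated WT cells. The R848-treated libraries lay above the untreated ones in both genotypes, and the genotypes overlapped only without R848. The rise was 1.54 on the log2 scale in KAT8-deficient cells (SE 0.23, edgeR adjusted p = 0.0347) and 3.85 in WT cells (SE 0.22, edgeR adjusted p = 7.05e-05). With R848 in both genotypes, KAT8-deficient minus WT cells came to -2.04 on the log2 scale (SE 0.18, edgeR adjusted p = 0.000503). Untreated, it was 0.27 with a 95% interval from -0.37 to 0.91. Raw counts of Hcar2 ran from 26 to 397 per library, so the untreated levels carry the larger counting error.

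Gpr84 (ENSMUSG00000063234, chromosome 15, 103308235 to 103310612) encodes a receptor for medium-chain fatty acids. Its levels were 17.9 and 24.2 CPM in R848-treated KAT8-deficient cells, 9.71 and 8.56 CPM in untreated KAT8-deficient cells, 53.4 and 53.7 CPM in R848-treated WT cells, and 9.97 and 11.9 CPM in untreated WT cells. It rose by 1.204 on the log2 scale in KAT8-deficient cells (SE 0.16, edgeR adjusted p = 0.0273) and by 2.29 in WT cells (SE 0.15, edgeR adjusted p = 9.32e-05). Both untreated KAT8-deficient libraries were below both untreated WT libraries, but the log2 difference of -0.26 did not pass (SE 0.16, edgeR adjusted p = 0.435). Under R848 it was -1.35 (SE 0.15, edgeR adjusted p = 0.000866). Gpr84 is uncertain in that the antisense gene Gm49482, not analysed here, shares up to 681 bases of exon with it, and no source used here states the strand setting of the counting.

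The adenosine receptors differed in level and response. Adora2a (ENSMUSG00000020178, chromosome 10, 75316877 to 75334784) encodes the high-affinity adenosine A2 receptor. It stood at 11.97 and 18.8 CPM in R848-treated KAT8-deficient cells, 6.09 and 5.94 CPM in untreated KAT8-deficient cells, 42.2 and 43.3 CPM in R848-treated WT cells, and 7.97 and 11.1 CPM in untreated WT cells. It rose by 1.35 in KAT8-deficient cells (log2, SE 0.23, edgeR adjusted p = 0.0446) and by 2.17 in WT cells (SE 0.21, edgeR adjusted p = 0.000348). The untreated libraries of the 2 genotypes did not overlap, but their log2 difference of -0.66 did not pass (SE 0.24, edgeR adjusted p = 0.163), while that under R848 did (-1.48, SE 0.20, edgeR adjusted p = 0.00221).

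Adora2b (ENSMUSG00000018500, chromosome 11, 62248984 to 62266453), the low-affinity adenosine A2 receptor, was expressed at a few CPM throughout. Its levels were 3.49 and 4.06 CPM in R848-treated KAT8-deficient cells, 3.36 and 3.42 CPM in untreated KAT8-deficient cells, 6.08 and 6.43 CPM in R848-treated WT cells, and 2.94 and 4.29 CPM in untreated WT cells. The R848-treated WT libraries were above all 6 others. The log2 change with R848 was 0.15 in KAT8-deficient cells (95% interval -0.32 to 0.63) and 0.80 in WT cells (SE 0.20, edgeR adjusted p = 0.0299). The genotype difference under R848 was -0.73 (SE 0.20, edgeR adjusted p = 0.0418). These 2 calls rested on few reads, with 63 to 126 counts per library, and held in 3 and 2 of 8 fits with a single library removed. Neither passed by DESeq2 (adjusted p = 0.0902 for the WT response and 0.136 for the genotype difference). Over all alternatives the adjusted p ran from 0.0138 to 0.141 for the WT response and from 0.0236 to 0.198 for the genotype difference.

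Fpr1 and Fpr2 encode receptors for formylated peptides released by bacteria and mitochondria, and Fpr2 also binds other ligands such as annexin A1. Fpr1 (ENSMUSG00000045551, chromosome 17, 17876471 to 17883940, minus strand) and Fpr2 (ENSMUSG00000052270, chromosome 17, 17887824 to 17893952, plus strand) lie head to head, their starts 3884 bases apart. The stretches before both starts are shown because the genes are neighbours that both rose in WT cells. Capitals mark matches to the motifs searched, and the sequences run 5′ to 3′ in the direction of each gene (RefSeq, GRCm38.p6; chr17:17883941-17884189 on the minus strand and chr17:17887574-17887823 on the plus strand).
Fpr1: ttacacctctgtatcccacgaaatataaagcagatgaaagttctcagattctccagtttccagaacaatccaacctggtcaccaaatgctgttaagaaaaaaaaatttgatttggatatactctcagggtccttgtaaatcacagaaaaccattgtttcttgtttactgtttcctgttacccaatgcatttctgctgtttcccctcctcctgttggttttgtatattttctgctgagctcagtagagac
Fpr2: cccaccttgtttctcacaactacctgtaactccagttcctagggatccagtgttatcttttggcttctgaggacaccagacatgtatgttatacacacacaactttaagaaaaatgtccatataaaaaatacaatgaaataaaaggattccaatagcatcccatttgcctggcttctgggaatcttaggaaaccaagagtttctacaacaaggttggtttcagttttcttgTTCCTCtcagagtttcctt
The motifs were GGG and CC with any 5 bases between (NF-kB) and 2 copies of GAAA with any 2 bases between (interferon response). TGANTCA (AP-1), TGACGTCA (cyclic AMP response) and GAGGAA (PU.1 core) were the others. Both strands were searched in windows of 300 bases that end 50 bases after the RefSeq start, which can differ from the GENCODE start. Fpr1 held 0 matches. Fpr2 held 1, a PU.1 core on the reverse strand that begins 19 bases before the start. Windows were given for 8 of the 10 receptors. Of those, 2 held the NF-kB letters, 2 the PU.1 core and 1 the AP-1 letters, against 50.8%, 28.3% and 7.81% of 32851 windows of all genes. None of the 8 held the interferon or cyclic AMP letters, which 3.44% and 1.79% of all windows held. Of the 8, Gpr84 and C5ar1 had only 76 and 48 bases of window before the GENCODE start, against at least 246 for the others. Where the NF-kB letters of Adora2b matched, at 4 places, 2 of the matches overlapped.

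Fpr1 stood at 9.71 and 15.2 CPM in R848-treated KAT8-deficient cells, 3.36 and 3.26 CPM in untreated KAT8-deficient cells, 37.5 and 33.4 CPM in R848-treated WT cells, and 4.85 and 5.97 CPM in untreated WT cells. No 2 groups overlapped. It rose by 1.91 on the log2 scale in KAT8-deficient cells (SE 0.23, edgeR adjusted p = 0.0230) and by 2.72 in WT cells (SE 0.21, edgeR adjusted p = 0.000141). The log2 genotype difference was -1.51 under R848 (SE 0.19, edgeR adjusted p = 0.00145) and -0.70 untreated (SE 0.24, edgeR adjusted p = 0.154).

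Fpr2 stood at 4.665 and 8.54 CPM in R848-treated KAT8-deficient cells, 2.20 and 2.51 CPM in untreated KAT8-deficient cells, 30.6 and 26.1 CPM in R848-treated WT cells, and 5.08 and 4.02 CPM in untreated WT cells. The R848-treated KAT8-deficient libraries overlapped the untreated WT libraries. The log2 change with R848 was 1.48 in KAT8-deficient cells (SE 0.29, edgeR adjusted p = 0.0738), which did not pass, and 2.63 in WT cells (SE 0.25, edgeR adjusted p = 0.000310). Fpr2 had the lowest log2 genotype difference of the 10 under R848, -2.10 (SE 0.24, edgeR adjusted p = 0.00101), and -0.95 untreated (SE 0.31, edgeR adjusted p = 0.130). The coding sequences of Fpr1 and Fpr2 were identical at 69.8% of the positions aligned without a gap, with a longest identical run of 50 bases. Reads could be split between them only where they share sequence, and no source used here states the read length. The neighbouring Fpr3, whose annotated first exon overlaps Fpr2 by 48 bases, was at 0 counts in all 8 libraries.

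The receptors of the complement anaphylatoxins behaved differently from each other. C5ar1 (ENSMUSG00000049130, chromosome 7, 16246743 to 16259540) encodes the receptor for C5a, a leukocyte attractant. Its levels were 78.7 and 79.9 CPM in R848-treated KAT8-deficient cells, 82.7 and 78.0 CPM in untreated KAT8-deficient cells, 69.9 and 67.1 CPM in R848-treated WT cells, and 56.1 and 50.6 CPM in untreated WT cells. Every KAT8-deficient library was above every WT library. The log2 change with R848 was -0.02 in KAT8-deficient cells (95% interval -0.18 to 0.14), and 0.36 in WT cells (SE 0.072, edgeR adjusted p = 0.0125). The log2 genotype difference was 0.59 untreated (SE 0.072, edgeR adjusted p = 0.00557) and 0.21 under R848, which did not pass (SE 0.071, edgeR adjusted p = 0.0897).

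C3ar1 (ENSMUSG00000040552, chromosome 6, 122847138 to 122856161, minus strand) encodes the receptor for C3a. The bases before its start are shown because it was 1 of the 2 receptors that fell and the 1 member whose window held both the AP-1 and the NF-kB letters, the first 7 and the next 10 capitals (RefSeq, GRCm38.p6, chr6:122856162-122856407, minus strand, 5′ to 3′ in the direction of the gene).
C3ar1: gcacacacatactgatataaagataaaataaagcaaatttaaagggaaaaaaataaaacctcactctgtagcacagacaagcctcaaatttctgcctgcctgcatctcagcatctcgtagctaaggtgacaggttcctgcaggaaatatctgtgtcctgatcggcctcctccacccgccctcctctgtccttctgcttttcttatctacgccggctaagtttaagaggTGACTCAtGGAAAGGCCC
The AP-1 match began 18 bases and the NF-kB match 10 bases before the GENCODE start of C3ar1, where the printed bases end. C3ar1 stood at 549 and 507 CPM in R848-treated KAT8-deficient cells, 659 and 636 CPM in untreated KAT8-deficient cells, 333 and 316 CPM in R848-treated WT cells, and 607 and 552 CPM in untreated WT cells. The R848-treated WT libraries were the lowest of the 8. The log2 change with R848 was -0.30 in KAT8-deficient cells (SE 0.070, edgeR adjusted p = 0.117), which did not pass, and -0.84 in WT cells (SE 0.070, edgeR adjusted p = 0.000187). Its log2 genotype difference was 0.70 under R848 (SE 0.070, edgeR adjusted p = 0.000642) and 0.16 untreated (SE 0.070, edgeR adjusted p = 0.242).

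Ptafr (ENSMUSG00000056529, chromosome 4, 132564067 to 132582683) encodes the receptor for platelet-activating factor, a phospholipid mediator. It stood at 336 and 363 CPM in R848-treated KAT8-deficient cells, 326 and 333 CPM in untreated KAT8-deficient cells, 442 and 428 CPM in R848-treated WT cells, and 325 and 341 CPM in untreated WT cells. Only the R848-treated WT libraries stood apart from the rest by more than the spread within groups. The log2 change with R848 was 0.09 in KAT8-deficient cells (95% interval -0.05 to 0.23) and 0.39 in WT cells (SE 0.061, edgeR adjusted p = 0.00405). Under R848 the log2 genotype difference was -0.31 (SE 0.061, edgeR adjusted p = 0.0107), and untreated it was -0.02 (95% interval -0.15 to 0.12).

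Gpr183 (ENSMUSG00000051212, chromosome 14, 121952551 to 121965195, minus strand), also called EBI2, encodes the receptor for the oxysterol 7-alpha,25-dihydroxycholesterol, which positions immune cells in lymphoid tissue. Its levels were 5.51 and 4.48 CPM in R848-treated KAT8-deficient cells, 9.08 and 8.24 CPM in untreated KAT8-deficient cells, 1.97 and 2.40 CPM in R848-treated WT cells, and 5.54 and 7.01 CPM in untreated WT cells. KAT8-deficient libraries were above WT libraries in the same state, without overlap. The log2 change with R848 was -0.79 in KAT8-deficient cells (SE 0.18, edgeR adjusted p = 0.101), which did not pass, and -1.51 in WT cells (SE 0.20, edgeR adjusted p = 0.00155). Its log2 genotype difference was 1.19 under R848 (SE 0.20, edgeR adjusted p = 0.00601) and 0.47 untreated (SE 0.17, edgeR adjusted p = 0.175). Gpr183 lies inside the span of Ubac2 on the opposite strand without sharing an exon, and Ubac2 ranged from 31.9 to 41.1 CPM and was not called in any comparison.

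Compared per kilobase of exon, the receptors spanned more than 2 orders of magnitude in untreated cells and fell into a similar order at the top. In R848-treated KAT8-deficient cells the mean levels ran from C3ar1 at 123 CPM per kb through Ptafr at 96.1, C5ar1 at 30.9, Gpr84 at 12.2, Fpr1 at 9.40, Fpr2 at 5.09, Adora2a at 5.02, Hcar2 at 2.57 and Adora2b at 2.04 to Gpr183 at 1.73. Neighbours in that order overlapped between Gpr84 and Fpr1, Fpr2 and Adora2a, Hcar2 and Adora2b, and Adora2b and Gpr183. In R848-treated WT cells Ptafr was first at 119.6 CPM per kb, followed by C3ar1 at 75.3, Gpr84 at 31.04, Fpr1 at 26.8, C5ar1 at 26.6, Fpr2 at 21.9, Adora2a at 13.96, Hcar2 at 10.6, Adora2b at 3.39 and Gpr183 at 0.757. Fpr1 and C5ar1 were the 1 pair of neighbours there that overlapped. In untreated cells C3ar1, Ptafr, C5ar1 and Gpr84 were the top 4 in both genotypes, at 150.4, 90.6, 31.3 and 5.30 CPM per kb in KAT8-deficient cells and 135, 91.6, 20.8 and 6.34 CPM per kb in WT cells. Hcar2 was the lowest in both, at 0.880 CPM per kb in untreated KAT8-deficient cells and 0.730 CPM per kb in untreated WT cells.

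**Figure D2:**
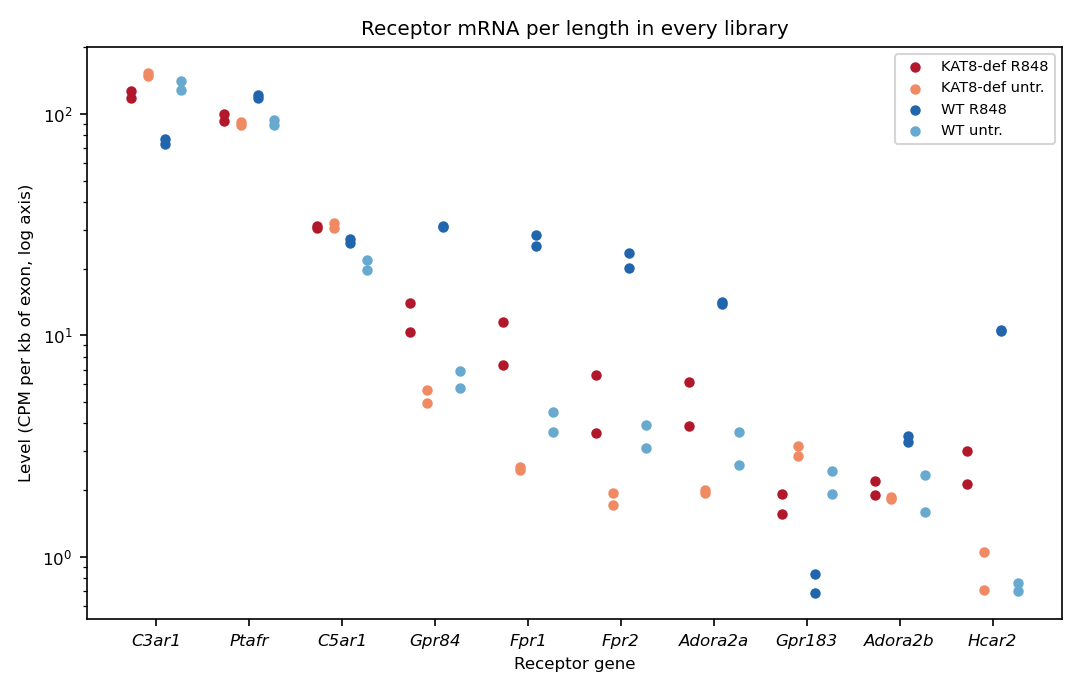
TMM-normalised CPM per kilobase of exon (log axis) for each receptor, with 1 point per library and a colour per group. C3ar1 and Ptafr lay above 75 CPM per kb in the mean of every group, and Gpr183 was the lowest receptor in both R848-treated groups, at 1.73 CPM per kb in KAT8-deficient and 0.757 CPM per kb in WT cells.

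In KAT8-deficient cells R848 raised 4 of the 10 receptors and none was called lower by edgeR after filtering. At an unadjusted p under 0.05 there were 7, and that share over all genes was not computed. The DESeq2 Wald test called 6 and 238 of all genes, adding Fpr2 as higher and C3ar1 as lower (log2 -0.30, adjusted p = 0.0244). Without a filter edgeR also called 6, adding Fpr2 as higher and Gpr183 as lower (log2 -0.78, adjusted p = 0.0361). Of all 14040 genes tested, 0.499% were called higher and 0.135% lower (0.634% in either direction). The libraries of the 2 states did not overlap for 9 receptors, C5ar1 being the exception, against 46.8% of all genes. The median log2 change was 0.68 over the 10 receptors and 0.0020 over all genes. All 4 calls depended on single libraries. All 4 lost their call without either untreated KAT8-deficient library, replicate 1 or 2. In the other fits that left out a library, 1 (Fpr1) was called without either R848-treated WT library, 2 (Gpr84 and Fpr1) without replicate 2 of R848-treated KAT8-deficient cells, and 3 (all but Hcar2) without either untreated WT library, whereas 5 (with Fpr2) were called without replicate 1 of R848-treated KAT8-deficient cells. Fitted on the 4 KAT8-deficient libraries alone, all 4 also missed the threshold, with edgeR adjusted p from 0.0813 for Fpr1 to 0.137 for Hcar2. The direction of all 4 was upward in each of these fits.

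In WT cells 8 of the 10 receptors were called higher and 2 lower, against 6.94% and 6.7% of all genes (13.6% in either direction). The libraries of the 2 states did not overlap for any of the 10, against 56% of all genes. The median log2 change was 1.48 over the receptors and -0.0024 over all genes. The calls on 8 of the 10 held whichever library was left out. The exceptions were Adora2b, described above, and C5ar1, which lost its call without either R848-treated WT library or without replicate 2 of untreated WT cells (adjusted p from 0.0167 to 0.103 over the 8 fits).

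**Figure D3:**
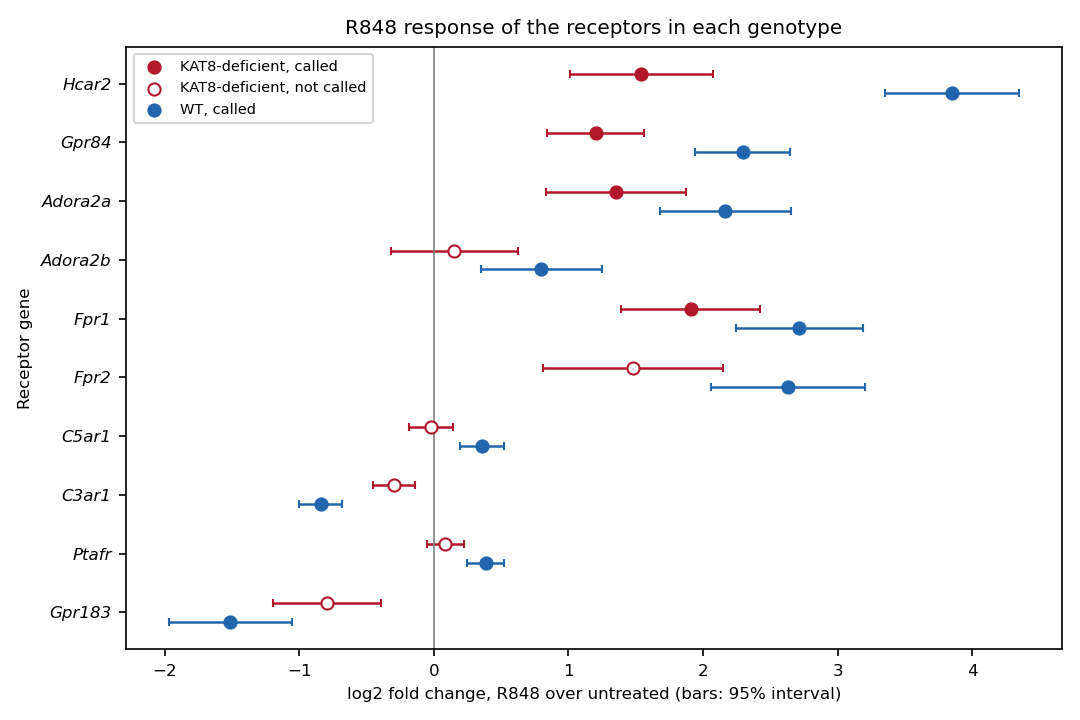
Log2 fold change of each receptor with R848 (horizontal axis) in KAT8-deficient and WT cells, with 95% intervals. Filled points passed an edgeR adjusted p of 0.05 over all genes. All 10 were filled in WT cells, from -1.51 for Gpr183 to 3.85 for Hcar2, and 4 in KAT8-deficient cells.

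Between genotypes under R848, 7 of the 10 receptors were lower in KAT8-deficient cells and 2 were higher, against 5.47% and 8.14% of all genes (13.6% in either direction). The libraries of the 2 genotypes did not overlap for any of the 10, against 59.4% of all genes. The median log2 difference was -1.04 over the receptors and -0.01 over all genes. This comparison and the WT response use the same R848-treated WT libraries, so the 2 sets of values are not independent. Besides Adora2b, the call on Ptafr was lost without replicate 1 of R848-treated KAT8-deficient or of R848-treated WT cells (adjusted p from 0.0127 to 0.0830 over the 8 fits). The call on Gpr183 was lost without replicate 1 of R848-treated WT cells (adjusted p from 0.00718 to 0.0571).

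Without R848, 1 of the 10 receptors, C5ar1, was called, and it was higher in KAT8-deficient cells. Of all genes 2.91% were higher and 1.36% lower (4.27% in either direction), and the median log2 difference over the receptors was -0.05. The genotypes did not overlap for 7 of the 10, all but Hcar2, Adora2b and Ptafr, against 50.4% of all genes. At an unadjusted edgeR p under 0.05 there were 6 of the 10, C5ar1 included, and that share over all genes was not computed. The DESeq2 Wald test called 2 of the 10 and 566 of all genes. For the receptors not called, a genotype difference was not shown to be absent. The C5ar1 call was lost without replicate 1 of untreated KAT8-deficient cells (adjusted p from 0.00761 to 0.0596 over the 8 fits). Fpr1 and Fpr2 were lower in both untreated KAT8-deficient libraries than in both WT libraries without passing the test. Fpr2 passed without replicate 1 or 2 of R848-treated KAT8-deficient cells and Fpr1 without replicate 1 (edgeR adjusted p from 0.0353 to 0.413 for Fpr2 and from 0.04996 to 0.391 for Fpr1 over the 8 fits).

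**Figure D4:**
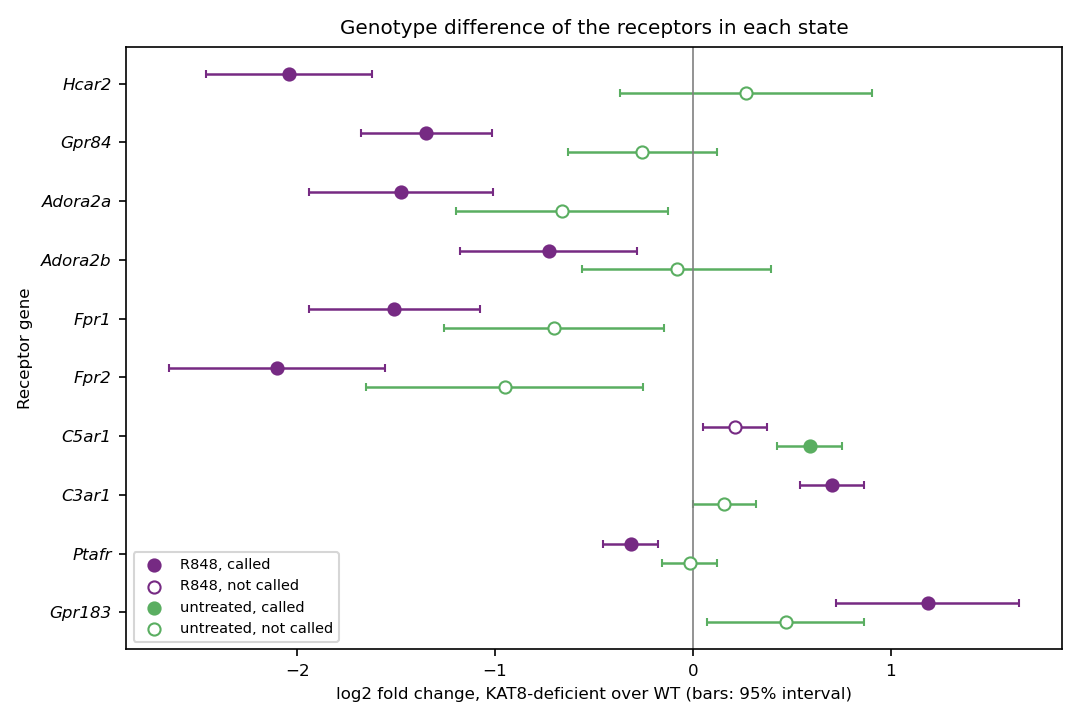
Log2 fold change of each receptor between KAT8-deficient and WT cells (horizontal axis) with R848 and untreated, with 95% intervals. Filled points passed an edgeR adjusted p of 0.05 over all genes. With R848, 9 were filled, from -2.10 for Fpr2 to 1.19 for Gpr183, and untreated C5ar1 alone, at 0.59.

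The interaction asks whether the response to R848 differed between the genotypes. Hcar2 was the 1 receptor of 10 called, with a response lower by 2.31 on the log2 scale in KAT8-deficient than in WT cells (the difference was -2.31, SE 0.34, edgeR adjusted p = 0.0428). Of all genes 0.171% were called lower and 0.057% higher (0.228% in either direction). The Hcar2 call was lost on leaving out any library other than replicate 2 of R848-treated KAT8-deficient cells (adjusted p from 0.00965 to 0.160 over the 8 fits). Without that replicate Gpr84, Fpr2 and C3ar1 passed as well. Gpr84 and C3ar1 came closest after it, with differences of -1.09 (SE 0.22, edgeR adjusted p = 0.0833) and 0.54 (SE 0.099, edgeR adjusted p = 0.0678). The other 7 ran from -1.15 for Fpr2 (95% interval -2.05 to -0.25, not adjusted for the number of genes) to 0.72 for Gpr183 (0.11 to 1.33). For these 9 receptors a difference in response between the genotypes was neither called nor shown to be absent. At an unadjusted p under 0.05 there were 9 of the 10 receptors, Hcar2 included. The share of all genes at that unadjusted p was not computed. The median difference over the 10 was -0.73, against 0.0062 over all genes.

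**Figure D5:**
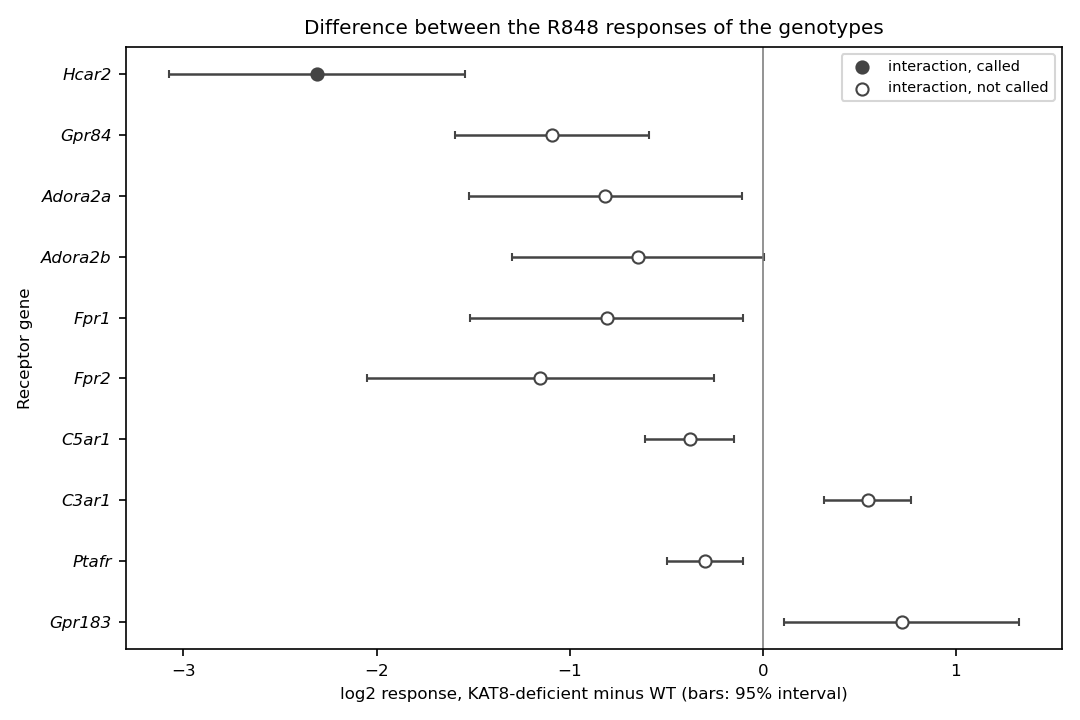
Log2 response to R848 in KAT8-deficient minus that in WT cells for each receptor (horizontal axis), with 95% intervals that are not adjusted for the number of genes. Hcar2, at -2.31, was the 1 filled point, having passed an edgeR adjusted p of 0.05 over all genes, and C3ar1 and Gpr183 were the 2 receptors above 0.

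The genes most like each receptor were sought by the root mean square difference in log2 CPM, centred per gene, over the 8 libraries, for the 6 receptors whose group means spanned at least 1 on that scale. Hcar2 was nearest to the cytokine gene Tnf (0.30) and the chemokine gene Ccl3 (0.32). Gpr84 was nearest to Zc3h12c (0.15), which encodes an RNase of the regnase family, and to Nfkbie (0.17), which encodes an NF-kB inhibitor. Adora2a was nearest to the adhesion molecule gene Icam1 (0.17) and Tlr2 (0.18), and Fpr1 to Tlr2 (0.20) and the lectin receptor gene Clec4e (0.21). Fpr2 was nearest to the guanylate-binding protein gene Gbp5 (0.20) and to Nlrp3 (0.25), an inflammasome sensor gene. Gpr183, which fell in WT cells, was nearest to Zfp395 (0.15) and the potassium channel gene Kcnh2 (0.16).

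Genes that supply or remove the ligands of these receptors were followed from a list of 24, of which 20 were tested. In KAT8-deficient cells R848 raised 2 and lowered 1, and in WT cells it raised 6 and lowered 4. For this list and the 3 that follow, the shares of all genes called were 0.634% with R848 in KAT8-deficient cells, 13.6% with R848 in WT cells, 13.6% between genotypes under R848, 4.27% between untreated genotypes and 0.228% in the interaction. Lpcat2, whose product makes platelet-activating factor, rose by 0.85 on the log2 scale in KAT8-deficient cells (SE 0.10, edgeR adjusted p = 0.0230) and by 1.44 in WT cells (SE 0.098, edgeR adjusted p = 9.40e-05). Ch25h, whose product makes 25-hydroxycholesterol on the way to the Gpr183 ligand, rose in WT cells to 9.58 ± 0.481 CPM with R848, against 4.16 ± 0.579 CPM untreated (SD, n = 2; log2 1.198, SE 0.19, edgeR adjusted p = 0.00370). Hsd3b7, whose product degrades that ligand, fell by 1.36 with R848 in KAT8-deficient cells (SE 0.21, edgeR adjusted p = 0.0386). DESeq2 also called 3 of the 20 in that comparison. Whether calls on single genes of these lists hold with a library left out was not tested. For counts of these lists at an unadjusted p under 0.05, the share over all genes was not computed. Complement C3, the precursor of the C3ar1 ligand C3a, was called higher in 4 comparisons: by 0.35 with R848 in KAT8-deficient cells, 0.50 with R848 in WT cells, and between genotypes by 0.27 under R848 and 0.42 untreated. Anxa1, which encodes an Fpr2 ligand, fell by 0.37 with R848 in WT cells (SE 0.062, edgeR adjusted p = 0.00528). Between genotypes 3 of the 20 were higher and 4 lower in KAT8-deficient cells under R848, and 3 were higher and 1 lower untreated. Those higher without R848 included Nt5e, which encodes the adenosine-forming ectoenzyme CD73, at 2.18 ± 0.404 CPM in KAT8-deficient and 0.555 ± 0.0600 CPM in WT cells (SD, n = 2; edgeR adjusted p = 0.0156). Nt5e rested on few reads, with 189 counts in all libraries together, and the cells that carried it were not determined. The median log2 change of the list lay between -0.06 and 0.12 in the 5 comparisons.

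Downstream of the receptors, 28 genes of G proteins and their effectors were tested. In KAT8-deficient cells edgeR called 0 of them with R848, with 8 at an unadjusted p under 0.05 and 1 called by DESeq2, and in WT cells R848 raised 7 and lowered 3. Pde4b, which encodes a phosphodiesterase that degrades cyclic AMP, rose in WT cells to 31.0 ± 4.39 CPM with R848, against 7.10 ± 0.945 CPM untreated (SD, n = 2; log2 2.13, SE 0.30, edgeR adjusted p = 0.00226). Adcy7, an adenylyl cyclase gene, fell by 0.59 in WT cells (SE 0.061, edgeR adjusted p = 0.000422). Pik3cg, which encodes the catalytic subunit of a phosphoinositide 3-kinase activated by G proteins, rose by 0.60 in WT cells (SE 0.093, edgeR adjusted p = 0.00345) and was lower by 0.65 in KAT8-deficient than in WT cells under R848 (log2 -0.65, SE 0.093, edgeR adjusted p = 0.00275). Under R848, 3 of the 28 were higher and 5 lower in KAT8-deficient cells. Untreated, Plcb2, a phospholipase C gene, was the 1 called, at -0.33 (SE 0.064, edgeR adjusted p = 0.0288).

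Of 14 genes that desensitise receptors or end G protein signals (GRK kinases, arrestins and RGS proteins), edgeR called 0 with R848 in KAT8-deficient cells, with 2 at an unadjusted p under 0.05 and 1 called by DESeq2, and in WT cells R848 raised 1 and lowered 3. Rgs2, whose product speeds the turn-off of Gq, fell by 1.36 in WT cells (SE 0.12, edgeR adjusted p = 0.000252), and Grk3, a receptor kinase gene, rose by 0.68 (SE 0.095, edgeR adjusted p = 0.00203). Between genotypes under R848, 4 were higher and 2 lower in KAT8-deficient cells, with Rgs2 at 36.2 ± 6.18 CPM in KAT8-deficient and 17.4 ± 0.0523 CPM in WT cells (SD, n = 2). Grk3 was lower in KAT8-deficient cells in both states, at -0.82 under R848 (SE 0.095, edgeR adjusted p = 0.00108) and -0.63 untreated (SE 0.098, edgeR adjusted p = 0.0127). Untreated, Rgs3 was the 1 called higher.

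Of 55 other G protein-coupled receptor genes of leukocytes, 38 were tested. In KAT8-deficient cells edgeR called 0 of them with R848, with 12 at an unadjusted p under 0.05 and 3 called by DESeq2. In WT cells R848 raised 7 and lowered 11, against 6.94% and 6.7% of all genes, with a median log2 change of -0.14. Ccrl2, an atypical receptor that presents chemerin, rose by 1.37 in WT cells (SE 0.12, edgeR adjusted p = 0.000225), and Cmklr1, the signalling receptor for chemerin, by 0.90 (SE 0.11, edgeR adjusted p = 0.000880). Cxcr4, the receptor for CXCL12, fell by 0.90 (SE 0.075, edgeR adjusted p = 0.000189) and P2ry6, a receptor for UDP, by 0.59 (SE 0.067, edgeR adjusted p = 0.000711). Between genotypes under R848, 5 were higher and 7 lower in KAT8-deficient cells, with Cxcr4 higher by 0.68 (SE 0.075, edgeR adjusted p = 0.000937) and Ccrl2 at -1.09 (SE 0.12, edgeR adjusted p = 0.000937). Untreated, 3 were lower, namely Mrgpre, Ptgir (the prostacyclin receptor) and P2ry14 (a receptor for UDP-glucose). In the interaction edgeR called 0 genes of these 4 lists. At an unadjusted p under 0.05 there were 5 of the 20 ligand genes, 4 of the 28 signalling genes, 4 of the 14 desensitisation genes and 12 of the 38 receptors, and DESeq2 called 0, 0, 1 and 2 of them. Whether the 10 receptors differ from these 38 was not tested.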

How the data were processed

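The authors deposited whole-number counts for each Ensembl gene, and the file headers name 1 library a column. HISAT2, StringTie 1.3.0, edgeR and the build mm10 are listed, without roles, per the submitters' processing notes. No source used here states the annotation or the counting settings. All values were whole numbers, all 8 columns matched a sample by name, and 0 were left over. Symbols, positions (GRCm38, the build of mm10) and exon lengths came from GENCODE M21, and 34344 of 34745 genes had a symbol. Lengths are the union of all annotated exons. Replicates differed by more than counting error (chi-square over its degrees of freedom was 7.83 to 12.7), and each counted as 1 sample.

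Genes with low counts were removed with filterByExpr, which kept 14040 genes and 99.95% of counts. All 8 libraries were fitted with the quasi-likelihood test of edgeR 4.0.16 (R 4.3.3) after TMM, with a mean for each group. This left 4 residual degrees of freedom, and the biological coefficient of variation common to all genes was 0.0956. Tests are two-sided, with Benjamini-Hochberg adjustment over all tested genes at a threshold of 0.05. The standard error (SE) of a log2 change was taken as its size over the root of the F statistic. The 95% intervals use these errors and are not adjusted. Likeness between genes used log2(CPM + 0.5) among genes with a mean of at least 5 CPM and no predicted or clone name. Groups of 2 allow no permutation p under the threshold, so none is given. The code was tested on simulated data.

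All 10 receptors are described, with up to 4 called genes of smallest adjusted p per list and comparison open to naming. The receptors, lists and comparisons were chosen with earlier results of these data known. Alternatives were DESeq2 size factors, the DESeq2 1.42.0 Wald test, no filter, a filter of at least 5 CPM in 2 libraries, a replicate block, robust estimation of the spread, only the libraries compared, and leaving out each library.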

Additional observations from a re-analysis of the deposited data

Results flagged for a closer look

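Hcar2 was noted because its response to R848 differed between the genotypes by the test of the difference itself, at -2.31 on the log2 scale (KAT8-deficient minus WT response, edgeR adjusted p = 0.0428). The response was upward in both genotypes, at 1.54 in KAT8-deficient and 3.85 in WT cells. The adjusted p ran from 0.00965 to 0.160 over the 8 fits that each left out 1 library and from 0.00150 to 0.0504 over the other alternatives that gave one. Groups of 2 libraries were too small for a check of single outlying samples.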

How the results depend on the processing

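Calls on 8 receptors in the WT response and on 6 between genotypes under R848 held in every alternative, and no called receptor changed direction in any. For the response in KAT8-deficient cells, 89 genes were called by edgeR, against 238 by the DESeq2 Wald test, 274 without a filter, 158 with robust estimation of the spread and 22 on the 4 libraries compared, where 0 receptors were called in place of 4. For the interaction, 32 genes were called, against 231, 245 and 148 by those first 3 alternatives. Its receptors called numbered 1, against 2 by DESeq2 (Gpr84 and C3ar1, with no adjusted p for Hcar2), 3 without a filter, 3 with robust estimation and 0 with a filter of 5 CPM, where the adjusted p of Hcar2 was 0.0504. For untreated cells, 600 genes were called, against 384 on the 4 libraries compared, and C5ar1 was joined by Fpr2 by DESeq2 and without a filter, making 2 receptors. The interaction has no fit on the compared libraries alone, since it uses all 8.

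Leaving out each library in turn gave 2 to 186 genes and 0 to 5 receptors for the response in KAT8-deficient cells and 858 to 1826 genes and 8 to 10 receptors for that in WT cells. It gave 784 to 1894 genes and 6 to 9 receptors between genotypes under R848, 66 to 606 genes and 0 to 3 receptors between untreated genotypes, and 6 to 208 genes and 0 to 4 receptors in the interaction. The fewest genes were called without replicate 1 of untreated KAT8-deficient cells (2, 66 and, in the interaction, 6) or without replicate 1 of R848-treated WT cells (858 and 784). A group left with 1 library was assumed to vary like the others. Uncalled log2 values near 0 changed sign for C5ar1 with R848 in KAT8-deficient cells (-0.054 to 0.019) and, untreated between genotypes, for Hcar2 (-0.043 to 0.53), Adora2b (-0.35 to 0.21) and Ptafr (-0.056 to 0.023). The cause was not tested.

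The labels do not tell whether samples of the same replicate number were paired. Over the tested genes, differences between replicates 1 and 2 correlated between groups at -0.060 to 0.048. With 1 such difference per group, these correlations cannot decide it. With the replicate number as a block, receptors called stayed at 4, 10, 9, 1 and 1, and genes called were 73, 1875, 1871, 531 and 25, for the response in KAT8-deficient and WT cells, the genotypes under R848 and untreated, and the interaction. Read numbers were low for Hcar2 in untreated cells (26 to 38 per library) and for Adora2b (63 to 126). How much depth adds to the spread of these genes was not tested.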
